A study of Mus musculus with 6 samples.

Results

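A set of 10 genes that encode heterochromatin silencers was examined in mouse embryonic stem cells, and all were found by gene name among the 17110 genes of the authors' deposited table, with 10 of 10 also listed by gene ID in the deposited count table. They are Trim28, Setdb1, Atf7ip, Mphosph8, Morc2a, Pphln1, Kdm1a, Ehmt1, Ehmt2 and Smchd1. The study sorted cells of the line TG2A, which carry a fluorescent reporter driven by the endogenous retrovirus MERVL, by DsRed2 signal into a positive group (DsRed2+) and a negative group (DsRed2-), each of 3 samples. Cells of both groups carried the reporter and were cultured with serum and LIF, and the replicates of each group were collected on different dates. The positive group is thus defined by activity of the MERVL promoter and the sort gate. Polyadenylated RNA of each sample was sequenced in bulk, which means that fewer cells of a type and less RNA per cell cannot be told apart.

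The values come from 1 comparison that the authors made with DESeq2. The authors' deposited table gives 1 log2 fold change, 1 standard error and 1 mean normalized count per gene, and it names neither the groups nor the reference. It was taken to compare the sorted groups, because the labels list no others. Signs are therefore given as deposited: positive and negative refer to the sign in the table, and which sorted group a sign favours is not stated. The 6 columns of the count table match no sample label, so values per sample, depth per library and overlap between groups are not analysed here. A gene is called below when its adjusted p-value in the authors' deposited table is under 0.05, intervals are 95% normal intervals from the authors' standard error, and that standard error follows each ± sign.

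Trimethylation of lysine 9 of histone H3 (H3K9) packs chromatin into a silent state. In embryonic stem cells it holds down endogenous retroviruses and other repeats. KRAB zinc-finger proteins bind retroviral DNA and recruit TRIM28, which brings in the methyltransferase SETDB1 and its stabilising partner ATF7IP. The HUSH complex, made of TASOR, MPHOSPH8 and periphilin (PPHLN1), spreads and reads this mark with the help of the ATPase MORC2. EHMT2 (G9a) and EHMT1 (GLP) form a dimer that adds the mono- and dimethyl mark, KDM1A (LSD1) removes methyl groups from lysine 4 of histone H3, and SMCHD1 is a non-canonical structural maintenance of chromosomes protein needed for X inactivation. Loss of TRIM28, KDM1A or G9a has been linked to activation of MERVL. Of the members, only SETDB1, EHMT1 and EHMT2 are H3K9 methyltransferases, and KDM1A and SMCHD1 belong to the set as co-silencers.

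The sequences upstream of Trim28, Atf7ip, Kdm1a and Smchd1, which are 4 of the called genes, are shown because they are the DNA just upstream of the called transcripts, and 1 short stretch further down is shown because it separates Pphln1 from the start of another gene. RefSeq (GRCm38.p6) gave a start for all 10 members. Shown are the bases from 250 to 51 before the start, 5′ to 3′ on the strand of the gene, with capitals marking a match to 1 of 9 short motifs on either strand. Trim28 lies on the plus strand at chr7:13023902-13024101, Atf7ip on the plus strand at chr6:136518601-136518800, Kdm1a on the minus strand at chr4:136602774-136602973 and Smchd1 on the minus strand at chr17:71475394-71475593.
Trim28: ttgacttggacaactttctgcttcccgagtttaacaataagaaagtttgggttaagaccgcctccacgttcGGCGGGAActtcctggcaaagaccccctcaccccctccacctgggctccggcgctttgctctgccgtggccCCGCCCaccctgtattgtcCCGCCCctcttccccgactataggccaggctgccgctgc
Atf7ip: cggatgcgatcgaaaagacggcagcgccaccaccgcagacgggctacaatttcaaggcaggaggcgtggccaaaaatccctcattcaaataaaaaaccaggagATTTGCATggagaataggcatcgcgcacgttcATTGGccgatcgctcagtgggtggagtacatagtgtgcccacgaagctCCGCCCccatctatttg
Kdm1a: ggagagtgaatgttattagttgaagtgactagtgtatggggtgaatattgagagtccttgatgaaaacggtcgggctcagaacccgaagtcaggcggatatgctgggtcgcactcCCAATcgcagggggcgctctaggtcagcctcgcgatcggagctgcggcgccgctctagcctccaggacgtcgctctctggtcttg
Smchd1: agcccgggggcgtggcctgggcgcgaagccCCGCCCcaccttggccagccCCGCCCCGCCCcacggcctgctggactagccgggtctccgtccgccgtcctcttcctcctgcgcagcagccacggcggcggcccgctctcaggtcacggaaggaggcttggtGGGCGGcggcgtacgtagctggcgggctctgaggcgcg
The motifs searched include the GC box, spelled GGGCGG and bound by SP1-type factors, and the CCAAT box, named after its letters and bound by NFY. The E-box was searched as CACGTG. The E2F site, known from cell cycle promoters, was searched as TTCCCGCC, and the octamer as ATGCAAAT. The ETS site was taken as CCGGAAG. The TATA box was taken as TATAAA, and the NRF1 and DUX motifs are given by name only. Smchd1 has 4 matches to the GC box, of which 2 overlap, and Trim28 has 2 together with 1 match to the E2F letters. Atf7ip has 1 octamer, the kind of site that POU factors bind, with 1 CCAAT box and 1 GC box, and Kdm1a has 1 CCAAT box. Of 32851 windows of the same 200 bases, 24.6% hold the GC box, 28.4% the CCAAT box, 1.40% the E2F letters and 1.32% the octamer. The ETS site is in 3.98%, the E-box in 4.34% and the TATA box in 9.14%. Counting every RefSeq start of a gene, 5 of the 10 members have a GC box and 5 have a CCAAT box. The ETS site is in 2 members (Setdb1 and Pphln1), and the E-box, E2F site, octamer and TATA box are in 1 each. None has the NRF1 or DUX motif, which 0.444% and 0.155% of windows hold. Members are counted per gene over all starts and the shares per single window, so they are not like for like. The window of Atf7ip also holds part of Gm44140, a noncoding gene on the opposite strand that GENCODE M21 classes as a bidirectional promoter RNA and that shares 83 exonic bases with Atf7ip. All 4 windows hold more CG pairs (12, 15, 15 and 25 for Trim28, Atf7ip, Kdm1a and Smchd1) than the median window, which has 4. This is not particular to called genes: each member that was not called also has a window above that median, such as Setdb1 with 8 and Ehmt1 with 17. For Trim28, 75.7% of all windows hold fewer.

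Of the 10 silencer genes, 5 were called in the authors' deposited table: Atf7ip, Trim28 and Kdm1a were positive, and Pphln1 and Smchd1 were negative. The share of all genes called in the authors' deposited table was 30.5%, with 14.6% positive and 15.9% negative. All 10 members are well expressed, and of the 5780 genes with a mean normalized count of at least 1000 in the authors' deposited table, 31.0% were called, 18.3% positive and 12.6% negative. The median log2 fold change of the 10 members was 0.19 in the authors' deposited table, beside 0.0097 for all genes and 0.057 for genes with a mean of at least 1000. Past the authors' limit of 0.5 on the log2 scale were 3 members (Atf7ip and Trim28 up, Pphln1 down) of the authors' deposited table, a rule that 21.5% of all genes and 11.5% of the well-expressed genes met. When trends of fold change with GC content and transcript length were removed, the positive calls of members went from 3 to 7. Setdb1, Morc2a, Ehmt1 and Ehmt2 were added. Over all genes, positive calls were then 2646 of 16795, beside 2492 of 17110 as deposited. When centred on ribosomal protein genes, the members kept 3 positive and 2 negative calls, while the positive share of all calls moved from 47.8% to 34.7%.

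**Figure D1:**
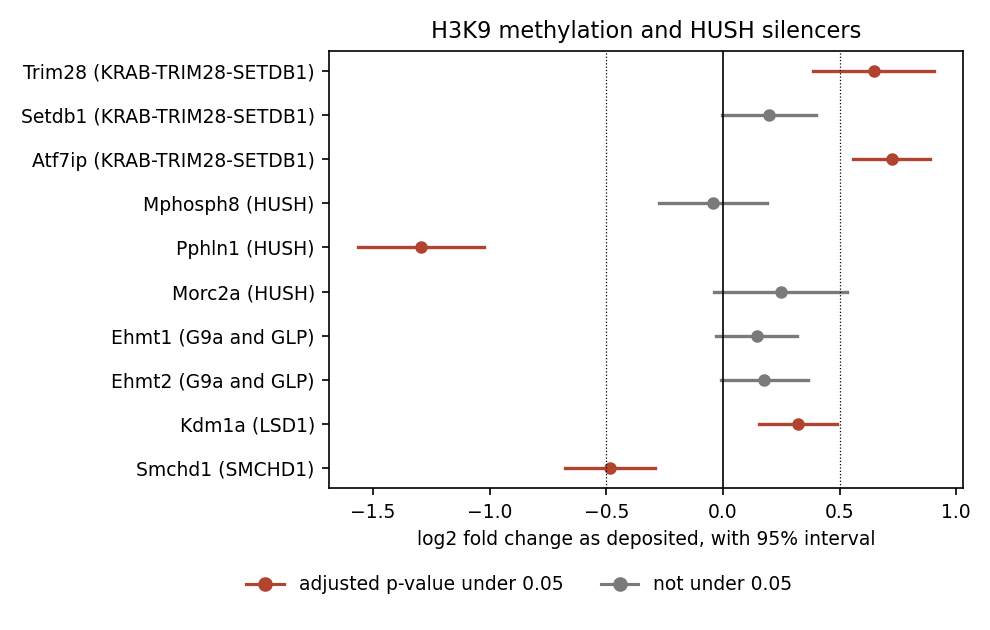
Log2 fold change of the 10 silencer genes as deposited by the authors (points) with 95% intervals (lines), grouped by complex, with red for an adjusted p-value under 0.05 and dotted lines at the authors' limit of 0.5. Pphln1 at -1.29 stands alone on the negative side beyond the limit, and Atf7ip at 0.72 and Trim28 at 0.65 lie beyond it on the positive side.

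Within the TRIM28 and SETDB1 arm, the cofactors were called and the methyltransferase was not, and the differences between them were not tested. Atf7ip (ENSMUSG00000030213), which stabilises SETDB1 in the nucleus, had a mean normalized count of 2875 in the authors' deposited table. Its log2 fold change in the authors' deposited table was 0.72 ± 0.084 (adjusted p-value 2.43e-16), a ratio of 1.65 with an interval of 1.47 to 1.85. Atf7ip ranked 424 by p-value among all genes of the authors' deposited table. This was the most positive of the members.

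Trim28 (ENSMUSG00000005566), the scaffold that KRAB zinc-finger proteins recruit, had by far the highest mean normalized count of the members, 64974 in the authors' deposited table. Its log2 fold change in the authors' deposited table was 0.65 ± 0.13 (adjusted p-value 9.88e-06), a ratio of 1.57 with an interval of 1.31 to 1.87. At this level such a value was uncommon: of the 238 genes with a mean of at least 20000 in the authors' deposited table, 2 had a higher log2 fold change and 235 a lower one. That limit was chosen after the values were seen. Setdb1 (ENSMUSG00000015697), the H3K9 methyltransferase itself, had a mean of 5100 and a log2 fold change of 0.20 ± 0.10 (adjusted p-value 0.143) in the authors' deposited table. As deposited, the interval for Setdb1 ran from -0.0052 to 0.40, a ratio of up to 1.32. With GC and length trends removed, Setdb1 stood at 0.32 and was called (adjusted p-value 0.00801). The exons of Setdb1 overlap 75 bases of Cers2 on the opposite strand, and whether the counting used strand is not stated.

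Partners of this arm that were called were all positive. Of 23 listed genes, 22 had a row in the authors' deposited table, and 9 of these were positive and called while 0 were negative and called by DESeq2 (at an unadjusted p-value under 0.05, 10 and 1). Their median log2 fold change in the authors' deposited table was 0.10. Over all genes, 14.6% were called positive and 15.9% negative. Zfp57, the KRAB zinc-finger protein that protects imprints, had 1.36 ± 0.13 (adjusted p-value 1.71e-24) in the authors' deposited table. Zfp809, the KRAB zinc-finger protein known for silencing murine leukemia virus, had 0.91 ± 0.12 (adjusted p-value 7.51e-12) in the authors' deposited table. Centring on the ribosomal protein genes left 4 positive calls and gave 2 negative ones in this list. Calls over all 17110 genes moved too, from 2492 to 1864 positive and from 2719 to 3508 negative.

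**Figure D2:**
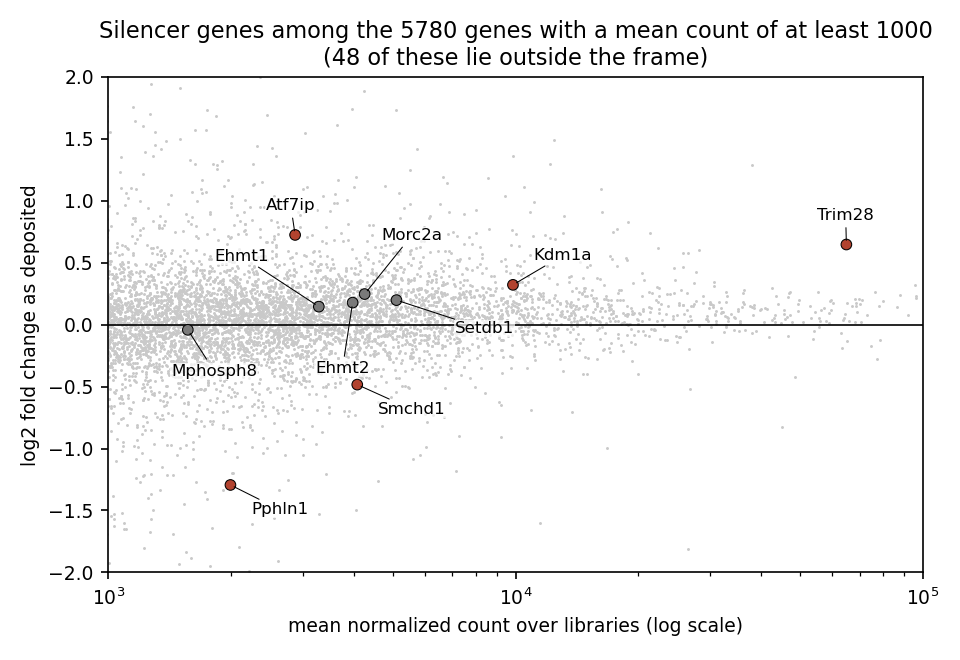
Mean normalized count (log scale, horizontal) against log2 fold change as deposited (vertical) for the 5780 genes with a mean of at least 1000 (grey dots), with the 10 silencer genes as large points, red where called. Trim28, at a mean of 64974, lies above nearly all genes of its level, Pphln1 lies low at -1.29, and 48 genes fall outside the frame.

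The HUSH genes had values of both signs. Pphln1 (ENSMUSG00000036167), which encodes periphilin, was the most strongly shifted member, with a mean normalized count of 1994 and a log2 fold change of -1.29 ± 0.14 (adjusted p-value 2.8e-19) in the authors' deposited table. This is a ratio of 0.408 with an interval of 0.338 to 0.492, or 2.45-fold between the groups. Of the 5780 genes with a mean of at least 1000 in the authors' deposited table, 61 had a lower log2 fold change than Pphln1. Its call was the only member call that held in all 8 other settings tried, with adjusted p-values between 4.60e-22 and 2.90e-07.

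The other HUSH members were not called. Mphosph8 (ENSMUSG00000079184), whose chromodomain reads methylated H3K9, had a mean of 1567 and a log2 fold change of -0.042 ± 0.12 (adjusted p-value 0.836) in the authors' deposited table. Its interval, -0.27 to 0.19, does not reach the value of Pphln1. Morc2a (ENSMUSG00000034543), the ATPase that HUSH recruits, had a mean of 4260 and a log2 fold change of 0.25 ± 0.15 (adjusted p-value 0.202) in the authors' deposited table. The interval for Morc2a ran from -0.038 to 0.53, and with GC and length trends removed it stood at 0.36 and was called (adjusted p-value 0.0442). In GENCODE M21, 483 exonic bases of Morc2a, 7.52% of its exonic bases, lie opposite the long noncoding gene Tug1, which had 0.36 ± 0.12 in the authors' deposited table, and reads there cannot be divided without strand. The exons of Mphosph8 overlap 384 bases of Gm16973 in the same way.

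Other HUSH-related genes, a list of partners that also holds paralogs and relatives of subunits, were split in sign as well. Of 6 listed genes that are not members, 5 had a row in the authors' deposited table, with 2 called positive and 2 called negative. The shares over all genes were 14.6% positive and 15.9% negative. Tasor, the scaffold of HUSH, had a log2 fold change of 1.17 ± 0.092 (adjusted p-value 1.07e-34) in the authors' deposited table. Its paralog Tasor2 had the opposite sign, -0.86 ± 0.19 (adjusted p-value 5.19e-05) in the authors' deposited table. Morc4, a relative of Morc2a, had -1.69 ± 0.24 (adjusted p-value 2.8e-11) at a mean count of 250.5 in the authors' deposited table. Resf1, a SETDB1 cofactor in retroviral silencing, had 0.61 ± 0.13 (adjusted p-value 1.55e-05) in the authors' deposited table and is named here after its value was seen. The 3 subunits of the HUSH core thus had log2 fold changes of 1.17 (Tasor), -0.042 (Mphosph8) and -1.29 (Pphln1) in the authors' deposited table, and the differences between them were not tested.

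**Figure D3:**
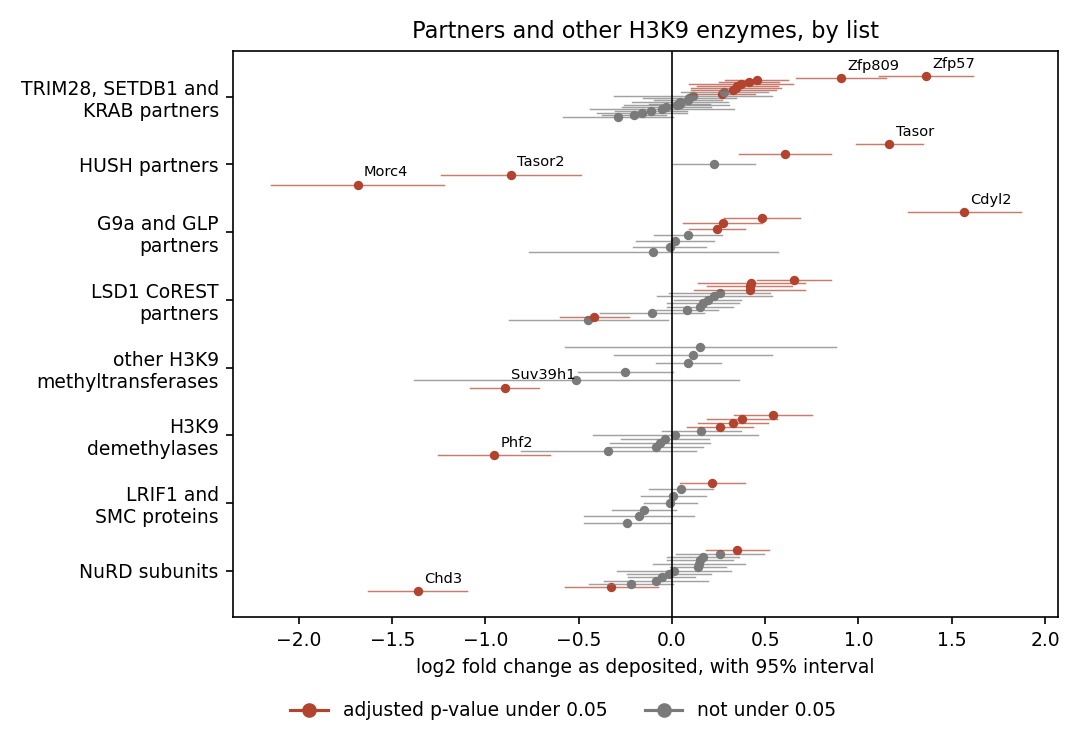
Log2 fold change as deposited (points) with 95% intervals (lines) for the genes of 8 lists of partners and other H3K9 enzymes, sorted within each list, red where the adjusted p-value was under 0.05, and named where called and beyond 0.8 in size. The list shown as HUSH partners, which also holds paralogs and relatives, spreads from -1.69 for Morc4 to 1.17 for Tasor. The list of LRIF1 and structural maintenance of chromosomes proteins stays between -0.24 and 0.22.

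Pphln1 lies among genes that were also negative. Its direct neighbours with a row in the authors' deposited table were Zcrb1 at -0.96 ± 0.13 and Prickle1 at -4.62 ± 0.21 (adjusted p-values 3.1e-11 and 1.14e-99). Prickle1 encodes a planar cell polarity protein and Zcrb1 an RNA-binding protein of the minor spliceosome. Beyond Zcrb1 came Yaf2, a subunit of Polycomb complexes, at -1.73 ± 0.14 in the authors' deposited table, and Gxylt1 at -0.50 ± 0.099. Pphln1 was thus inside 5 consecutive measured genes that were all called negative, while the runs around the other called members held 2 genes (Trim28 with Zbtb45, and Kdm1a with Luzp1) or 1 gene (Atf7ip and Smchd1). Over 10 measured genes on each side of Pphln1, 7 were called negative and 5 positive in the authors' deposited table, so the run does not extend across that window. The wider window and the runs were looked at after the nearest values had been seen.

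Pphln1 and Zcrb1 start 16 bases apart on opposite strands in GENCODE M21, so they share 1 upstream region. The 15 bases between the starts, shown on the plus strand of Pphln1 with CG pairs in capitals, lie at chr15:93398335-93398349 (GRCm38.p6) and hold 4 CG pairs.
Pphln1 to Zcrb1 stretch: gtcacCGCGCGCGcc
The RefSeq windows of Pphln1 hold 34 and 38 CG pairs in 200 bases, and 99.2% and 99.7% of all windows hold fewer. The windows overlap each other and both hold part of Zcrb1, so their counts are not separate. Apart from Morc2a, whose start overlaps that of Tug1 head to head, no other member has a gene with a mean count over 50 in the authors' deposited table whose start lies within 1000 bases upstream on the opposite strand: Slc27a5 (922 bases from Trim28) had a mean of 6.01, and C2 (204 bases from Ehmt2) had 38.7. The authors' deposited table also lists 2 pseudogene rows named Pphln1-ps1, at log2 fold changes of 0.35 and 0.035 (authors' standard errors 0.30 and 1.00) and mean counts of 333.1 and 24.2. Neither was called, and the value of Pphln1 is uncertain to the extent that reads were divided among these copies.

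**Figure D4:**
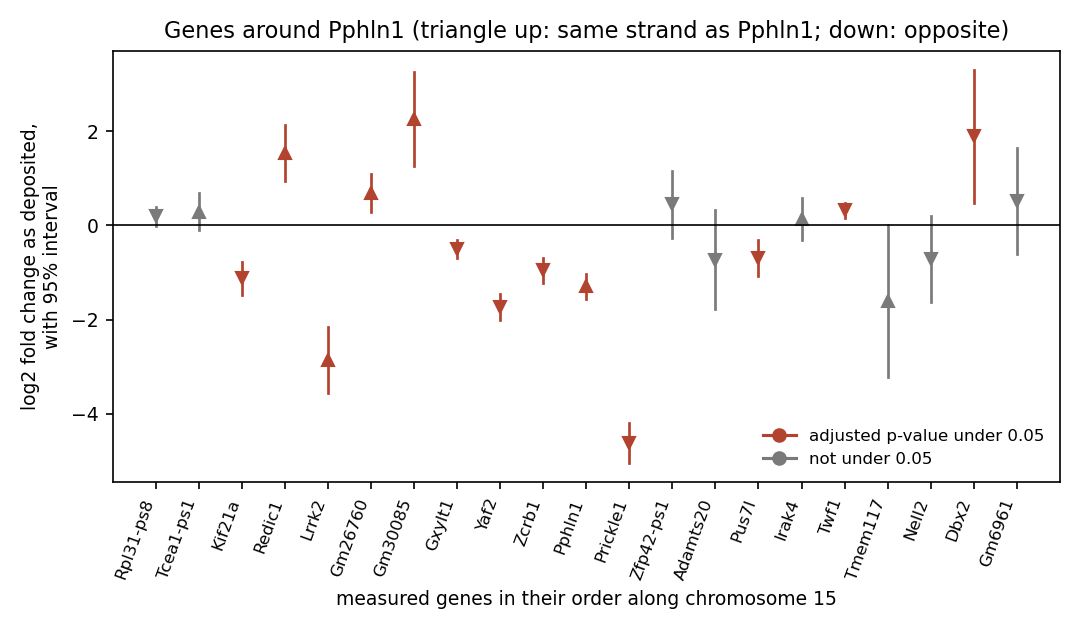
Log2 fold change as deposited with 95% intervals for Pphln1 and the 10 measured genes on each side, in their order along chromosome 15 in GENCODE M21, red where the adjusted p-value was under 0.05, triangles up for the strand of Pphln1 and down for the opposite strand. Gxylt1, Yaf2, Zcrb1, Pphln1 and Prickle1 form a run of 5 negative calls, with Prickle1 lowest at -4.62, and genes on either side of the run have both signs.

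The G9a and GLP methyltransferases had small positive values that did not pass. Ehmt2 (ENSMUSG00000013787) had a mean of 3980 and a log2 fold change of 0.18 ± 0.096 (adjusted p-value 0.155) in the authors' deposited table. Ehmt1 (ENSMUSG00000036893) had a mean of 3288 and a log2 fold change of 0.15 ± 0.089 (adjusted p-value 0.224) in the authors' deposited table. As deposited, the intervals reached ratios of 1.29 for Ehmt2 and 1.25 for Ehmt1. Both were called once GC and length trends were removed, at 0.27 for Ehmt2 (adjusted p-value 0.0159) and 0.25 for Ehmt1 (adjusted p-value 0.0202).

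Among 9 listed G9a and GLP partners, 8 were listed in the authors' deposited table, and their median log2 fold change was 0.16. Of these, 4 were called positive and 0 negative by DESeq2, and the unadjusted p-values under 0.05 gave 4 and 0 too. Among all genes, the shares called were 14.6% positive and 15.9% negative. Cdyl2, a chromodomain protein, was at 1.57 ± 0.15 (adjusted p-value 1.76e-22) in the authors' deposited table, with a mean count of 715.8. The related gene Cdyl was not called, at -0.013 ± 0.10 and a mean count of 1689, and is named here after its value was seen. Zfp518a, a zinc-finger protein, had 0.48 ± 0.10 (adjusted p-value 3.18e-05) in the authors' deposited table. Centred on the ribosomal protein genes, 2 of the 4 calls were left. Positive calls over all genes went from 2492 to 1864 in that setting.

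Suv39h1, which trimethylates H3K9 at pericentric repeats, had the opposite sign to the members of the TRIM28 arm, with a log2 fold change of -0.90 ± 0.095 (adjusted p-value 2.19e-19) in the authors' deposited table. Its paralog Suv39h2 had -0.25 ± 0.13 (adjusted p-value 0.139) in the authors' deposited table. None of the other 4 methyltransferases listed was called in the authors' deposited table, which left 0 positive and 1 negative call among 6 by DESeq2 (0 and 1 at an unadjusted p-value under 0.05). The median of this list in the authors' deposited table was -0.081. Of 11 H3K9 demethylases with a row in the authors' deposited table, 4 were called positive and 1 negative, around a median of 0.018. Both lists stand beside 14.6% of all genes called positive and 15.9% called negative. Kdm3a, a demethylase of mono- and dimethylated H3K9, had 0.54 ± 0.11 (adjusted p-value 3.88e-06) in the authors' deposited table. Phf2, another member of the demethylase class, had -0.95 ± 0.15 (adjusted p-value 8.18e-09) in the authors' deposited table.

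Kdm1a (ENSMUSG00000036940) was the second most abundant member, with a mean of 9856 in the authors' deposited table. Its log2 fold change in the authors' deposited table was 0.32 ± 0.085 (adjusted p-value 0.00101), a ratio of 1.25 with an interval of 1.11 to 1.40. This was a called but small shift below the authors' limit of 0.5, and it did not pass when tested against 0.25 (adjusted p-value 1). LSD1 is brought to chromatin through the CoREST complex. Of 13 listed genes, 4 were called positive and 1 negative in the authors' deposited table, around a median of 0.19. The listed genes are CoREST subunits, proteins linked to LSD1 complexes and the paralog Kdm1b (LSD2). Of all genes, 14.6% were called positive and 15.9% negative. The CoREST paralogs had opposite signs: Rcor2 had 0.66 ± 0.10 and Rcor1 had -0.42 ± 0.094 (adjusted p-values 1.77e-09 and 7.85e-05) in the authors' deposited table. With centring on the ribosomal protein genes, 2 genes of this list were called on each side. Calls over all genes then went from 2492 to 1864 positive and from 2719 to 3508 negative.

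Smchd1 (ENSMUSG00000024054) had a mean of 4086 and a log2 fold change of -0.48 ± 0.099 (adjusted p-value 9.5e-06) in the authors' deposited table. This is a ratio of 0.715 with an interval of 0.625 to 0.818, just inside the authors' limit of 0.5, so the authors' deposited table does not mark it as down. Centred on the ribosomal protein genes, Smchd1 stood at -0.58 (adjusted p-value 7.43e-08), past that limit, which made 4 members past it instead of 3. How many of all genes lay past the limit in that setting was not counted. Smchd1 was not called when tested against 0.25 (adjusted p-value 0.104). Of the members, the value of Smchd1 moved most towards 0 when GC and length trends were removed, to -0.31, where it was still called. Of 7 genes listed with it, LRIF1 and the structural maintenance of chromosomes proteins, 1 was called positive and 0 negative by DESeq2 in the authors' deposited table (1 and 1 at an unadjusted p-value under 0.05). That gene was Smc2, a condensin subunit, at 0.22 ± 0.089 (adjusted p-value 0.0497) in the authors' deposited table, and centring on the median of all genes ended its call. The NuRD deacetylase complex, which TRIM28 can recruit, had 1 positive and 2 negative calls among 13 genes in the authors' deposited table. Beside this list and the one with LRIF1, 14.6% of all genes were called positive and 15.9% negative. Chd3, a NuRD ATPase, had -1.36 ± 0.14 (adjusted p-value 5.53e-22) in the authors' deposited table, and Mta3 had 0.35 ± 0.086 (adjusted p-value 0.000348). Chd4, the other NuRD ATPase listed, was not called, at -0.055 ± 0.091, and is named here after its value was seen. Per kilobase of the longest transcript, Chd4 had 2992 normalized counts and Chd3 86.7.

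**Figure D5:**
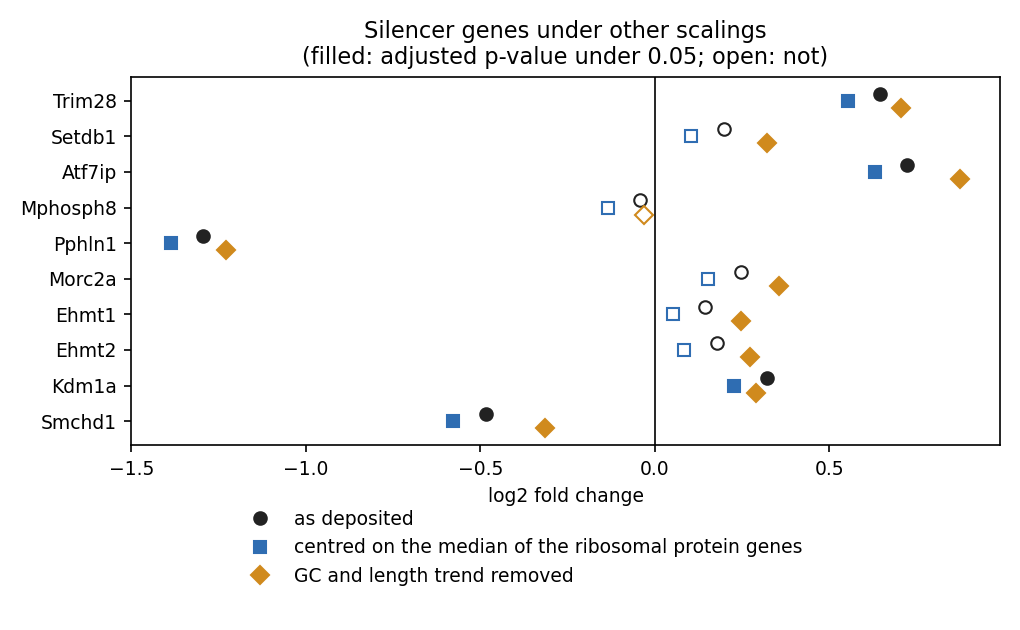
Log2 fold change of the 10 silencer genes as deposited (circles), centred on ribosomal protein genes (squares) and with GC and length trends removed (diamonds), filled where the adjusted p-value was under 0.05. Each gene keeps its sign in all 3, and Setdb1, Morc2a, Ehmt1 and Ehmt2 are filled only for the diamonds.

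Levels were compared between genes per kilobase of the longest transcript in GENCODE M21. Trim28 led with 20023 normalized counts per kilobase computed from the authors' deposited table, followed by Kdm1a with 3255. The other members ran from 989 for Ehmt2, 902 for Setdb1 and 753 for Morc2a to 579 for Smchd1, 558 for Pphln1, 552 for Ehmt1, 533 for Mphosph8 and 357 for Atf7ip, all from the authors' deposited table. The spread over samples is not known here, so neighbours in this order cannot be told apart. With the median transcript length, Trim28 and Kdm1a still led, but the order of the others changed: Morc2a came next at 5121 and Setdb1 was last at 1109 normalized counts per kilobase.

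The labelled cell type was checked against its markers. Embryonic stem cell markers were abundant, with 12 of 13 listed genes in the authors' deposited table at mean counts from 1260 to 38163, and 9 were called positive and 0 negative by DESeq2 (9 and 0 at an unadjusted p-value under 0.05), such as Tbx3 at 2.39 and Dppa5a at 1.29. Of 31 two-cell markers listed, 5 had a row and the others were not analysed here. Of these 5, 2 were called positive in the authors' deposited table, Calcoco2 at 3.10 and Eif1a at 0.26. Eif1a had a mean count of 10229 and Calcoco2 536.0. With 26 of the listed genes not analysed, these 2 calls do not describe the two-cell state as a whole. Among all genes, 14.6% were called positive and 15.9% negative. Markers of other cell types were mostly negative in the authors' deposited table: 7 of 7 epiblast genes were called negative, 7 of 11 trophectoderm genes, 3 of 8 primitive endoderm genes and 5 of 9 fibroblast genes. Examples from the authors' deposited table are Fgf5 at -7.17 and T at -6.56, Cdx2 at -5.82 and Krt19 at -4.73, and Dab2 at -2.18. Fibroblast examples are Tagln at -5.96 and Col1a2 at -4.85. Col1a2 had a mean count of only 10.1 and a standard error of 1.22. The primitive endoderm marker Lama1 was positive at 1.91 in the authors' deposited table. So were 2 of 3 blood markers, Cd3e at 2.45 (mean count 40.5) and Cd68 at 0.91 (mean count 166.0). Marker levels in each group are not analysed here, and their part in the silencer values was not tested.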

How the data were processed

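RNA of 6 samples in 2 groups was measured. FastQC 0.12.1, Trimmomatic 0.39, STAR 2.7.11b, RSEM 1.3.3, DESeq2 1.45.3 and the build GRCm39 are named in the submitters' processing notes, without role or order. The annotation, strand setting, model formula and reference group are not given in the sources used here. Per the file headers, the authors deposited mean normalized counts, a signal pooled over libraries, and log2 fold changes with standard errors on the log2 scale. The Wald statistic, a score deposited by the authors, differed by at most 5.77e-07 from fold change over standard error. The deposited p-values and adjusted p-values were taken unchanged. The authors' up and down calls had 0 exceptions to an adjusted p-value under 0.05 with an absolute log2 fold change over 0.5. The 6 count columns match no label and were not used, so the planned test on counts was not made. Per the labels, the samples of a group are biological replicates from different dates.

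The members and lists were chosen with earlier results of these data known. Named genes are all members, the 2 called genes with the smallest adjusted p-value per pathway list, every Tasor and Suv39h gene, all genes of a list with 3 or fewer rows, and the 2 called markers with the largest change per cell type. Neighbouring genes are named by position. Resf1, Chd4 and Cdyl are named after their values were seen. Length and GC came from GENCODE M21 (GRCm38) by gene ID for 16795 of 17110 genes, with trends removed by loess (span 0.3, R 4.3.3). Adjustment, Wald tests and intervals were computed in Python 3.11.15 with scipy 1.17.1. The calls from adjusted Wald tests and the removal of a GC trend were tried on simulated data, and the intervals were not. Similar transcripts were sought with blastn 2.17.0 at 90% identity over 300 bases. Ribosomal centring used 79 genes with a median of 0.093. No coordinates of the authors' build were used; those printed belong to GRCm38.p6.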

Additional observations from a re-analysis of the deposited data

How the results depend on the processing

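No paired analysis was possible because the columns with values per sample match no replicate label. For the same reason, edgeR, other normalizations and filters of counts, and fits without a replicate were not run, so whether 1 library decides a value is not known. Of 80 values of the 10 members under other settings, 70 kept direction and call, 6 lost a call and 4 gained one, and none changed sign. The cause of each change below was not tested except where a stricter limit makes it.

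With GC and length trends removed, 7 members were called positive. Over all genes, 2646 of 16795 were called positive in that setting, beside 2492 of 17110 as deposited. Tested against 0.25, 1 member was called negative (Pphln1), and against 0.5, 0 positive and 1 negative, where Atf7ip had an adjusted p-value of 0.0755. Of all 17110 genes, the test against 0.25 called 1128 positive and 1469 negative, and the test against 0.5 called 659 and 927. Fold limits of 0.25 and 1 left 5 and 1 members. Ribosomal centring put 4 past 0.5, with Smchd1 added. How many of all genes lay past the fold limits in these settings was not counted, so nothing is read from these changes about the members.

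At an adjusted p-value under 0.01, positive calls were 5 for the TRIM28 and SETDB1 partners, 2 for the LSD1 and CoREST list and 0 for LRIF1 and structural maintenance of chromosomes proteins, and NuRD kept 1 negative call. Calls over all 17110 genes were then 1847 positive and 2073 negative, beside 2492 and 2719 as deposited. Centring on all genes gave 0 positive calls in the LRIF1 list, beside 2420 positive and 2778 negative calls over all genes. Centring on ribosomal protein genes gave 4 positive and 2 negative calls for the TRIM28 and SETDB1 partners, 2 positive for G9a and GLP, 2 and 2 for the LSD1 and CoREST list, 2 negative for the other methyltransferases (Suv39h2 at -0.34 added), and 0 and 2 for the LRIF1 list, whose median was -0.10. Calls over all genes under ribosomal centring were 1864 positive and 3508 negative. Without genes under a mean of 50, which leaves out Mecom, the methyltransferase median was 0.088. With GC and length trends removed, the TRIM28 and SETDB1 partners had 1 negative call, NuRD had 3 positive calls, and the medians were 0.27 for G9a and GLP and 0.090 for the LRIF1 list. Calls in that setting were 2646 positive and 2802 negative among 16795 genes.

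Per kilobase of the median transcript length, levels were 79772 for Trim28, 9906 for Kdm1a, 5121 for Morc2a, 3692 for Ehmt2, 3468 for Smchd1, 2540 for Mphosph8, 2127 for Ehmt1, 1833 for Atf7ip and 1664 for Pphln1, with Setdb1 last at 1109, since short annotated transcripts enter that median.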
